A study of Mus musculus with 16 samples.

Results

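The genes described here are 4 lymphoid homing chemokines, Cxcl13, Ccl19, Ccl21a and Cxcl12, and the 3 receptors that read them, Cxcr5, Ccr7 and Cxcr4. They were taken by symbol from a table of 54838 gene identifiers. The 7 symbols matched 9 identifiers, since Ccl19 and Ccl21a each have another identifier with almost no counts (0 and 8.13 estimated counts over all samples), and all 7 genes passed the filter on low counts that left 14510 genes to test. The study sequenced RNA from spleens of C57BL/6 mice to find genes enriched in spleen glia, the cells that accompany the nerve fibres of the organ. Its 8 size-selected samples, whose source the labels give as spleen glia, hold what stayed on a cell strainer after spleens had been minced, digested with enzymes and treated to lyse red blood cells, and its 8 whole spleen samples carry the same protocol text, so how whole spleen was prepared is not given separately. Each fraction has 1 sample for each of the numbers 407, 408, 427 and 435, labelled male, and 436, 445, 447 and 460, labelled female. No treatment, transgene or age is given. No marker was used to sort the cells, so a size-selected sample is a mixture of the cells and tissue pieces retained by size.

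Homing chemokines are secreted proteins that place lymphocytes within lymphoid organs. In the white pulp of the spleen, stromal cells of the B cell follicle make CXCL13, which draws cells bearing CXCR5, and stromal cells of the T cell zone make CCL19 and CCL21, which both act through CCR7. CXCL12 is made by stromal and vascular cells in many tissues, signals through CXCR4 and is known for holding plasma cells and blood progenitors in place.

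Sequence just ahead of the start of transcription was available for 5 of the 7 genes in the RefSeq promoter table (assembly GRCm38.p6), which had no entry for Cxcr5 or Ccr7. The start site of Ccl19 in that table lies 212 bases inside the gene as GENCODE release M21 draws it, so its window is not shown. The windows of the other 3 ligands and of Cxcr4 are shown because the ligands moved together and opposite to the receptor. Each is the 250 bases before the start, 5′ to 3′ on the gene's strand, with the motifs found in capitals.
Cxcl13, chr5:95956689-95956938, plus strand: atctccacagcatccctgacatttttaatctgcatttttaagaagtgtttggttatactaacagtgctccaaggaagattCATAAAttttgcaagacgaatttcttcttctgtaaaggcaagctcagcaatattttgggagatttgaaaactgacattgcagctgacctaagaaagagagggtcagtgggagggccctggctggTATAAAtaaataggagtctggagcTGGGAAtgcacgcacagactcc
Ccl21a, chr4:42773992-42774241, minus strand: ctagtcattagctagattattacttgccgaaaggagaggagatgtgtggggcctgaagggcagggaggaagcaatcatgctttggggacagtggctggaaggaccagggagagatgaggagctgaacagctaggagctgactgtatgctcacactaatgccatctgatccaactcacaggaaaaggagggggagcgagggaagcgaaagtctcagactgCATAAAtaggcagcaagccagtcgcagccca
Cxcl12, chr6:117168285-117168534, plus strand: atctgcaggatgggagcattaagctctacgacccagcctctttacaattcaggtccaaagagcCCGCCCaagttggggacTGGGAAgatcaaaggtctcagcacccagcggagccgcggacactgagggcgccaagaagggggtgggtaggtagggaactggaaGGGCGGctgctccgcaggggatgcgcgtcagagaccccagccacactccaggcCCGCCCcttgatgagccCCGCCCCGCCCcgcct
Cxcr4, chr1:128592300-128592549, minus strand: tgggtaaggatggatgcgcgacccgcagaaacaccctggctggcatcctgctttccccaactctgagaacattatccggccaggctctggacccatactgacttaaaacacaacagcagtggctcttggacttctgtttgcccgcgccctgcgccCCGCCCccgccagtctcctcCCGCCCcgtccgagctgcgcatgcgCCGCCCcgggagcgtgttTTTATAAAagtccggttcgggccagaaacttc

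Both strands were searched for TATAAA, the core of a TATA box. A TATA-like core, CATAAA, was searched in the same way. The GC box was searched as GGGCGG. The RBP-J core was searched as TGGGAA. An NF-kB site and the core of an interferon response element were the remaining searches. The Cxcl13 window holds TATAAA from 46 to 41 bases before the start, CATAAA farther upstream and TGGGAA from 22 to 17 bases before the start. That of Ccl21a holds CATAAA from 31 to 26 bases before the start and none of the other motifs. Cxcl12 has 5 GC boxes, a pair of which overlap by 1 base, and 1 TGGGAA. In Cxcr4 there are 3 GC boxes and TATAAA from 30 to 25 bases before the start, which overlaps a TATAAA read on the opposite strand. Of all 32851 windows of this length, 12.4% hold the TATA box core, 10.8% the TATA-like core, 32.7% a GC box and 21.6% the RBP-J core. The NF-kB site, which 1.21% of windows hold, and the interferon core, which 2.98% hold, had no match in these 4 windows. Cxcl13 and Ccl21a have 2 and 4 CpG pairs against a median of 6 over all windows, and Cxcl12 and Cxcr4 have 14 and 19.

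Ccl21a is 1 of several near-identical copies on chromosome 4, which limits what its count can mean. The coding sequence of Ccl21a has 402 bases, and those of Gm21541, Gm13304, Ccl21b and Gm10591 each differ from it at 2 positions (99.5% identity). Counted from 1 at the first base of the start codon, the differences are T84A in codon 28 and C194T in codon 65. They are shown in capitals because a read within the coding sequence that covers neither cannot tell the copies apart. Exon bases outside the coding sequence were not compared, and Ccl21a has 870 annotated exon bases against 402 in Ccl21b and Gm10591.
Ccl21a around position 84: agtgatggagggggTcaggactgctgcct
The 4 copies around position 84: agtgatggagggggAcaggactgctgcct
Ccl21a around position 194: ggcaatcctgttctCaccccggaagcact
The 4 copies around position 194: ggcaatcctgttctTaccccggaagcact
Most counts were nevertheless given to Ccl21a. All other identifiers of the Ccl21 copies together took 2.19% of the Ccl21 counts in the size-selected samples and 4.09% in whole spleen. The size-selected share is on deposited counts, where Ccl21a is lowered by a constant described below. For Ccl19, its pseudogenes and its other identifier took 3.11% and 3.97%. Ccl19 and Ccl21a are neighbours, 16282 bases apart.

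Totals ran from 13119992 to 19944440 estimated counts in the size-selected samples and from 12153770 to 16282454 in whole spleen. The labels do not say that the numbers are separate animals, so p-values measure the spread between these samples. In the size-selected columns alone, the deposited counts of 3898 genes are whole or 2-decimal values multiplied by 1 to 3 constants per column. Among the 7 genes, Ccl21a and Cxcr4 carry the lowest constant, from 0.659 to 0.789 depending on the sample, and the other 5 carry none. Values with the constants divided out are called restored counts here and are given where named as such. All other levels and tests computed here use deposited counts, among them the copy shares, levels per kilobase, sex comparisons and likeness to other genes. Number 427 stood apart in both fractions. Its whole spleen sample had 59.7 CPM (the share of a library's counts, scaled to a common total) summed over 8 fibroblast markers, against at most 24.0 in the other 7. Its size-selected sample had the lowest B cell and T cell marker scores.

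All 4 chemokines were higher in the size-selected samples than in whole spleen, in 8 of 8 numbers, by 5.73 to 7.04 on the log2 scale. Among all genes tested 37.5% were called higher and 30.4% lower (edgeR's quasi-likelihood test, Benjamini-Hochberg adjusted p under 0.05), and 23.3% had size-selected values all above those of whole spleen, so the direction alone does not set the 4 apart. On the whole spleen samples alone 6 of the 7 genes would pass the filter on low counts and Ccl19 would not, so the call of Ccl19 is no support for a direction. The size of the change was nearer the extreme: 0.93% of genes tested had a larger log2 fold change than Cxcl12, and 3.18% had a larger one than Cxcl13.

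Cxcl12 (chr6:117168535-117181367, plus strand) had the largest change. In the size-selected samples it ran from 370 CPM in number 435 through a median of 817 to 1480 in number 427. In whole spleen it ran from 3.07 CPM through a median of 4.78 to 18.6, again in number 427. The groups lay far apart, and apart from the sample of number 427 the whole spleen values stayed within a narrow band of 3.20 to 6.22 CPM in males and 3.07 to 5.63 in females. The means were 805 ± 340 and 6.17 ± 5.17 CPM (SD, n = 8 each). On the log2 scale Cxcl12 thus rose by 7.04 with an SE of 0.44 (edgeR adjusted p = 2.89e-10).

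Ccl19 (chr4:42754525-42756577, minus strand), a CCR7 ligand of the T cell zone, ran from 111 CPM in number 435 through a median of 303 to 554 in number 427 among the size-selected samples. Whole spleen ran from 0.385 CPM in number 460 through a median of 2.73 to 9.30 in number 427. This was the widest spread of any of the 7 genes within a fraction, and its lower end rests on 6.34 estimated counts. The log2 fold change was 6.64 ± 0.51 (SE, edgeR adjusted p = 2.59e-09). As said above, this call is no support for a direction.

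Ccl21a (chr4:42772860-42773993, minus strand), the other CCR7 ligand, ran from 76.0 CPM in number 435 through a median of 426 to 651 in number 427 in the size-selected samples, and from 2.42 through 3.13 to 22.4 in whole spleen. The 8 size-selected values split into 5 between 419 and 651 CPM and 3 between 76.0 and 190, numbers 435, 445 and 447. Its log2 fold change was 5.89 ± 0.57 (SE, edgeR adjusted p = 4.57e-08), and 6.29 ± 0.58 on restored counts. Adding the counts of the near-identical copies left the call in place.

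Cxcl13 (chr5:95956951-95961068, plus strand), the follicular ligand of CXCR5, ran from 131 CPM in number 435 through a median of 297 to 620 in number 407 in the size-selected samples. In whole spleen it ran from 2.47 CPM through a median of 5.02 to 15.7 in number 427. Numbers 407 and 427 were the 2 highest in each fraction. The log2 fold change was 5.73 ± 0.44 (SE, edgeR adjusted p = 2.75e-09).

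Number 435 had the lowest size-selected value of all 4 chemokines, and number 427 had the highest whole spleen value of all 4. Whole spleen libraries held few reads of these genes: 36 to 193 estimated counts of Cxcl13, 6.34 to 114 of Ccl19, 36 to 275 of Ccl21a and 42 to 228 of Cxcl12, so the whole spleen level carries most of the counting error of each fold. Without number 427 the 4 log2 fold changes were 5.91 to 7.34, and without its whole spleen sample alone 6.05 to 7.51.

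**Figure D1:**
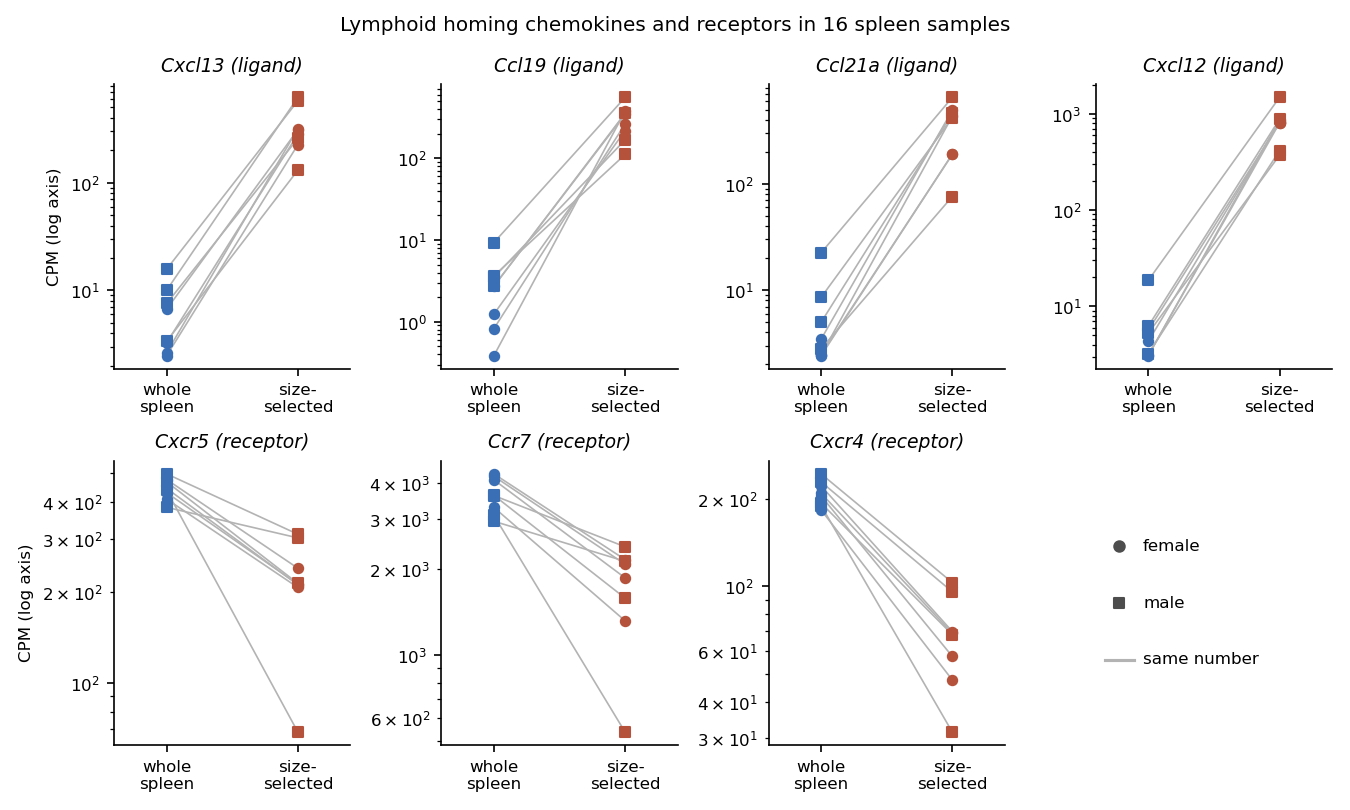
CPM (log axis) of the 4 ligands and 3 receptors in 8 whole spleen (blue) and 8 size-selected (red) samples, circles for females and squares for males, with lines joining samples of the same number. Every line of a ligand rises and every line of a receptor falls, and the lowest red point of each receptor panel is number 427.

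The 3 receptors were lower in the size-selected samples in 8 of 8 numbers, with no overlap between fractions, with log2 fold changes from -1.63 to -0.999. Groups that do not overlap in this direction made up 11.6% of all genes tested. In bulk RNA, fewer cells of a type and less RNA per cell cannot be told apart. The B cell markers fell alongside (7 of 8 called lower, against 30.4% of all genes, none higher, summed level 947 to 3472 CPM in the size-selected samples and 5636 to 6913 in whole spleen), as did the T cell markers (8 of 8 called lower, 73.3 to 486 against 661 to 991 CPM). None of these 16 markers was at 0 throughout a fraction. Of the neutrophil markers, 7 of 8 were called lower and 1 higher (150 to 792 against 521 to 1824 CPM). Called lower too were 3 of 6 plasma cell markers, with 1 higher, and 3 of 6 erythroid markers, or 2 on restored counts. No receptor was set against these other lists.

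Ccr7 (chr11:99144196-99155077, minus strand), carried by naive T cells, B cells and migrating dendritic cells, was by far the most abundant of the 3. Size-selected samples ran from 537 CPM in number 427 through a median of 1969 to 2391 in number 408, and whole spleen from 2937 through 3615 to 4301. The sample of number 427 lay well below the other 7 size-selected values, which began at 1317. The log2 fold change was -1.05 ± 0.21 (SE, edgeR adjusted p = 0.000249). Of the genes tested, 7.97% had a lower log2 fold change.

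Cxcr5 (chr9:44511787-44561877, minus strand), the receptor of follicular B cells and follicular helper T cells, ran from 68.4 CPM in number 427 through a median of 213 to 312 in number 408 in the size-selected samples. Whole spleen ran from 383 through 440 to 495 CPM. Again number 427 was far below the rest, which began at 207 CPM, while whole spleen samples differed little. The log2 fold change was -0.999 ± 0.199 (SE, edgeR adjusted p = 0.000213), and 8.95% of genes tested were lower than this.

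Cxcr4 (chr1:128588199-128592293, minus strand), the CXCL12 receptor of lymphocytes and myeloid cells, ran from 31.5 CPM in number 427 through a median of 68.6 to 103 in number 435 in the size-selected samples, and from 183 through 207 to 244 in whole spleen. At -1.63 ± 0.18 (SE, edgeR adjusted p = 2.39e-07) its log2 fold change was the lowest of the 3 on the deposited counts, and 1.30% of genes tested were lower still. With the constant divided out, size-selected values ran from 40.9 to 133 CPM and the log2 fold change was -1.23 ± 0.17 (SE, edgeR adjusted p = 5.60e-06). On restored counts Ccr7 stood at -1.10 and Cxcr5 at -1.05, so the gap between Cxcr4 and the other receptors was narrower than on deposited counts, and differences between receptors were not tested.

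**Figure D2:**
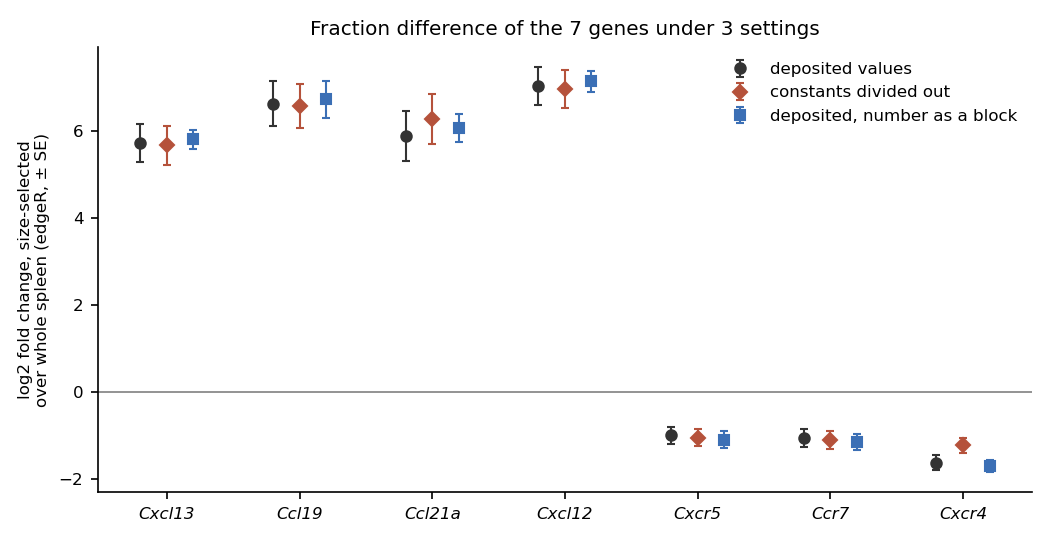
Log2 fold change (± SE, edgeR) of each gene between size-selected and whole spleen samples, from deposited values, from values with the constants divided out, and from deposited values with the sample number as a block. Only Ccl21a (5.89 to 6.29) and Cxcr4 (-1.63 to -1.23) move visibly when the constants are divided out, the 2 genes that carry one.

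Within a fraction, the spread of ligands and receptors was unlike. In whole spleen the highest sample of a receptor was 1.29 to 1.46 times the lowest, whereas for the ligands this ratio was 6.06 to 24.1. Among the size-selected samples both kinds varied, by 3.27 to 4.56 times for receptors and 4.00 to 8.57 times for ligands.

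Per kilobase of annotated exon, Ccr7 had the highest level of the 7 in both fractions, with 888 ± 304 CPM per kilobase in the size-selected samples and 1842 ± 265 in whole spleen (SD, n = 8). In the size-selected samples Ccl21a (418 ± 221), Ccl19 (344 ± 161) and Cxcl13 (296 ± 148 CPM per kilobase) came next, and these neighbours did not differ beyond their spread. Cxcl12 stood at 98.5 ± 41.5, over an exon length of 8176 bases that joins all its isoforms, Cxcr5 at 66.4 ± 22.4 and Cxcr4 at 37.5 ± 13.0 CPM per kilobase. The size-selected values of Ccl21a and Cxcr4 are lowered here by their constant. In whole spleen the receptors came first, with Cxcr5 at 133 ± 10.9 and Cxcr4 at 116 ± 11.6 behind Ccr7, and every ligand averaged at most 7.12 CPM per kilobase. The authors' deposited table of 2201 genes higher in size-selected samples lists the 4 ligands and, being limited to rises, none of the receptors. In the authors' deposited table the mean TPM was 960 for Ccl21a, 732 for Ccl19, 495 for Cxcl12 and 445 for Cxcl13 in size-selected samples, and 9.51, 5.84, 3.16 and 6.70 in whole spleen, which places Cxcl12 higher than the joined exon length does. By fold change the authors' deposited table ranks Cxcl12 157, Ccl19 246, Ccl21a 500 and Cxcl13 575.

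The question whether the receptors fell as far as the lymphocytes that carry them was put by subtracting a marker score, the mean log2 CPM of 8 marker genes, from the log2 CPM of the receptor in each sample. Relative to the B cell markers (among them Ms4a1, Cd79a, Cd79b and Pax5), Cxcr5 was higher in the size-selected sample of 7 of 8 numbers. Cxcr5 minus the B cell score was 0.57 ± 0.26 in size-selected samples and 0.30 ± 0.15 in whole spleen (SD, n = 8), a difference of 0.26 that missed the threshold between groups (exact two-sided permutation test, p adjusted over 8 relations = 0.0535) and passed it over pairs of the same number (exact sign flips, adjusted p = 0.0250). On restored counts, where 4 of the 8 markers and not Cxcr5 change, the difference was 0.12 and passed neither test (exact permutation, adjusted p = 0.451, and exact sign flips, adjusted p = 0.2125). Without number 427 it was 0.32 on deposited counts (exact permutation, adjusted p = 0.0186).

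Ccr7 fell less than the T cell markers (Cd3e, Cd3d, Cd3g, Lck, Cd5, Cd6, Bcl11b and Cd2) in 8 of 8 numbers. Ccr7 minus the T cell score was 6.02 ± 0.34 against 5.53 ± 0.37, a difference of 0.49 (exact permutation, adjusted p = 0.0460). It was 0.41 on restored counts (exact permutation, adjusted p = 0.147) and 0.43 without number 427 (exact permutation, adjusted p = 0.104), in both cases with the call of this unpaired test lost. Leaving out any other number but 435 also lost it, with differences of 0.47 to 0.52 (exact permutation, adjusted p from 0.0536 to 0.0774). Over pairs of the same number it passed on deposited counts (exact sign flips, adjusted p = 0.0208) and on restored counts, where it was again higher in 8 of 8 numbers (exact sign flips, adjusted p = 0.0312). B cells express Ccr7 too, so the T cell score covers only some of its sources.

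Cxcr4 fell further than the B cell markers in 8 of 8 numbers on deposited counts, from -0.78 ± 0.19 to -1.11 ± 0.18, a difference of -0.33 (exact permutation, adjusted p = 0.0261) that was -0.31 without number 436 and -0.32 without 447, past the threshold in neither. With the constants divided out the difference was -0.026 (exact permutation, adjusted p = 0.918), with 3 numbers higher and 5 lower. Against the T cell markers it was -0.06 on deposited counts (exact permutation, adjusted p = 0.812) and 0.32 on restored counts, higher in 7 of 8 numbers (exact permutation, adjusted p = 0.154). Whether Cxcr4 fell with lymphocyte markers, less or more therefore turned on the constants.

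**Figure D3:**
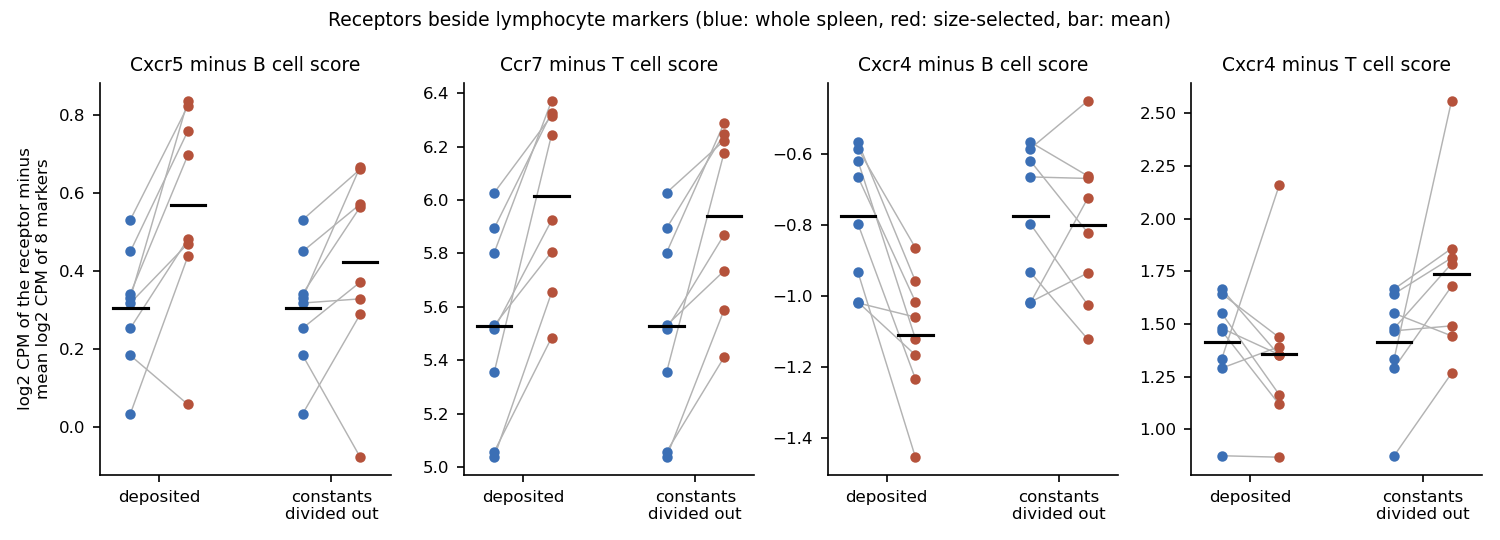
Log2 CPM of a receptor minus the mean log2 CPM of 8 B cell or T cell markers in whole spleen (blue) and size-selected (red) samples, joined by number, on deposited values and with the constants divided out, with bars at the means. Ccr7 rises against the T cell score on both scales (0.49 and 0.41), while the fall of Cxcr4 against the B cell score (-0.33) is -0.026 once the constants are divided out.

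The ligands were set in the same way beside 8 fibroblast markers (Pdgfra, Pdgfrb, Dcn, Lum, Col1a1, Col1a2, Col3a1 and Dpt), all called higher, whose summed level was 1074 to 3790 CPM in the size-selected samples and 5.02 to 59.7 in whole spleen. Relative to these markers Cxcl13 was lower in 8 of 8 numbers: Cxcl13 minus the fibroblast score was 1.12 ± 0.72 in size-selected samples and 2.28 ± 0.68 in whole spleen, a difference of -1.16 (exact permutation, adjusted p = 0.0261) that was -1.31 on restored counts (adjusted p = 0.0249). Unpaired, it missed the threshold without number 436 (-1.02), 445 (-1.11) or 447 (-1.13), with exact permutation adjusted p from 0.0559 to 0.0730. Over pairs it passed on deposited and restored counts (exact sign flips, adjusted p = 0.0208 and 0.0312). All markers but Dcn and Col1a2 would fail the filter on whole spleen alone, and against those 2 the difference was -0.81 and not past the threshold (exact permutation, adjusted p = 0.0876). That check also cut the list from 8 markers to 2 and was not run over pairs. The part played by markers near their floor in whole spleen was not tested. For Ccl21a the difference was -0.91, lower in 7 of 8 numbers, which missed the threshold between groups (exact permutation, adjusted p = 0.0535), passed it over pairs (exact sign flips, adjusted p = 0.0250) or without number 408 (-0.94, exact permutation, adjusted p = 0.0466) and was -0.61 on restored counts (exact permutation, adjusted p = 0.264, and exact sign flips, adjusted p = 0.0781). Ccl19 and Cxcl12 differed from the fibroblast score by -0.10 and 0.17 (exact permutation, adjusted p = 0.812 and 0.768), within the spread of the samples, and by -0.25 and 0.013 on restored counts (exact permutation, adjusted p = 0.684 and 0.967), where Ccl19 was lower in 7 of 8 numbers. Against Dcn and Col1a2 alone Ccl21a was at -0.57, Ccl19 at 0.25 and Cxcl12 at 0.51. None passed the threshold (exact permutation, adjusted p from 0.265 to 0.738), and sign flips over pairs were not run against these 2 markers. The paired call of Ccl21a therefore stands for the list of 8 alone. The marker lists given next were also at higher summed levels, and their counts are read against the 37.5% of all genes called higher. Neutrophil, plasma cell and erythroid lists instead had more markers called lower than higher, as given above. Markers that are nearly absent from whole spleen had to be higher to be tested at all, so each count is given with the number that would fail the filter on whole spleen alone. Among cell types known to make these ligands, 8 of 9 fibroblastic reticular cell markers were called higher (summed level 87.4 to 346 against 11.8 to 21.7 CPM), 6 of which would fail. So were 7 of 8 follicular dendritic cell markers, 1 of which would fail, and 4 of 5 lymphatic endothelial markers past the filter, 3 of which would fail. Endothelial markers were called in 8 of 8 (776 to 1957 against 86.0 to 228 CPM), 2 of which would fail, and smooth muscle markers in 7 of 7 (822 to 3858 against 8.75 to 73.8 CPM), 4 of which would fail. The 5 mesothelial markers past the filter (19.6 to 173 against 0.381 to 3.67 CPM) and the 8 glia markers (74.7 to 620 against 1.80 to 6.53 CPM) were called too, and all of them would fail, so only their levels count. Of 13 genes of the response to tissue dissociation 10 were called higher, and none would fail. Their part in the ligands' rise was not tested.

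Across the 8 size-selected samples, each ligand ran against its receptor, past the threshold after adjustment in 1 of 4 relations. This was not particular to matched genes: over all 12 pairs of a ligand with a receptor r ran from -0.91 to -0.55, and unmatched pairs such as Ccl19 with Cxcr4 (-0.91) and Cxcl12 with Cxcr5 (-0.84) were as far below 0. For Cxcl12 and Cxcr4, Pearson's r was -0.91 (exact permutation p = 0.00446, adjusted over 8 relations p = 0.0357) and Spearman's rho -0.74 (exact permutation p = 0.0458), and r was -0.84 without the 2 samples farthest from the median of Cxcl12. For Ccl19 and Ccr7 r was -0.75 (exact permutation p = 0.0280, adjusted p = 0.0745), with rho -0.79 (exact permutation p = 0.0279) and r -0.78 without 2 samples. For Ccl21a and Ccr7 r was -0.58 (exact permutation adjusted p = 0.217, rho -0.83 with exact permutation p = 0.0154, r -0.65 without 2 samples), and for Cxcl13 and Cxcr5 -0.66 (exact permutation adjusted p = 0.188, rho -0.60 with exact permutation p = 0.132, r -0.91 without 2 samples). In whole spleen Ccl19 and Ccr7 also ran against each other (r = -0.83, exact permutation adjusted p = 0.0445, rho = -0.88, exact permutation p = 0.00724, r = -0.87 without 2 samples), and the other 3 relations did not pass, with r from -0.51 to 0.42 (exact permutation adjusted p from 0.265 to 0.306). The 2 genes of a relation share their library and its total.

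**Figure D4:**
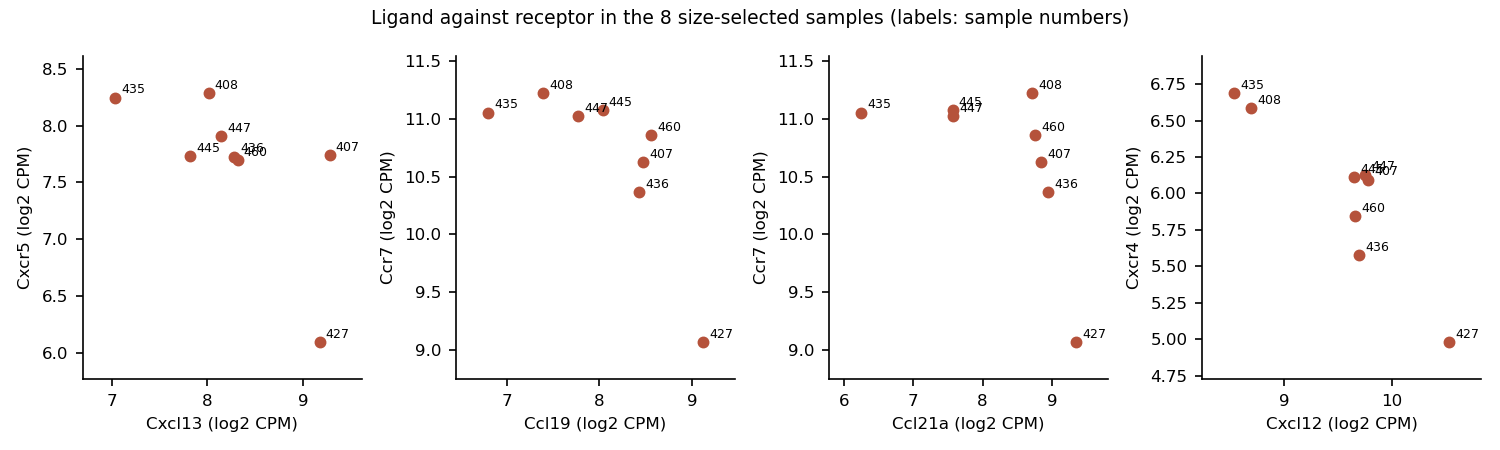
Log2 CPM of each ligand (horizontal) against its receptor (vertical) in the 8 size-selected samples, with sample numbers beside the points. Number 427 is the lowest in every receptor, numbers 435 and 408 lie at the upper left for Cxcl12 and Cxcr4, and r runs from -0.58 for Ccl21a and Ccr7 to -0.91 for Cxcl12 and Cxcr4.

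Likeness to other genes was measured as Pearson's r of log2 CPM over all 16 samples after subtracting each fraction's mean. It was taken among the 9306 genes that averaged 3 or more in log2 CPM, as a description with no test. Deposited counts were used, and of the other genes named below Mfge8, Madcam1, Synpo, Bgn, Mylk, Sema3f, Mmp14, Tie1 and Vpreb3 carry a constant. By this measure the 6 pairs of ligands had r from 0.68 to 0.86, the 3 pairs of receptors from 0.83 to 0.91 and the 12 pairs of a ligand with a receptor from -0.62 to -0.33. The receptor pairs were close only among size-selected samples (0.90 to 0.95) and not in whole spleen (-0.16 to 0.32), where receptor values barely varied. Cxcl13 was most like Mfge8 (r = 0.92), a phagocytosis protein of follicular dendritic cells, Madcam1 (0.91), an adhesion molecule of the marginal sinus, and Parm1 (0.87). Ccl21a shared 2 of these, Mfge8 (0.92) and Madcam1 (0.88), with Bag3 (0.88) as the third. Ccl19 was most like Synpo (0.95), Bgn (0.93) and Mylk (0.93), which encode an actin-associated protein, a matrix proteoglycan and the kinase of smooth muscle myosin. Cxcl12 was most like Sema3f (0.94), Mmp14 (0.93) and Tie1 (0.93), the last a receptor of endothelial cells. Among the receptors, Cxcr5 was nearest Sla2, Stat4 and B3gnt7 (0.97 each), Ccr7 nearest Lpxn, Gpr174 and the B cell receptor component Cd79b (0.97 each), and Cxcr4 nearest Vpreb3 (0.96), Cd69 (0.95) and Zfp622 (0.94).

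Between the sexes none of the 7 genes was called in either fraction (edgeR), against 0.194% of genes called in whole spleen and 0.0397% in the size-selected samples. In whole spleen the 4 ligands nevertheless had lower means in the 4 female samples, each with an unadjusted p under 0.05. Ccl21a ran from 2.42 to 3.45 CPM in females and from 2.80 to 22.4 in males, a female minus male difference of -1.85 ± 0.52 (SE, edgeR adjusted p = 0.131). Ccl19 ran from 0.385 to 2.73 CPM in females and from 2.72 to 9.30 in males, a difference of -1.90 ± 0.56 (SE, edgeR adjusted p = 0.150). Females and males overlapped in 1 sample or more for each ligand, and number 427 is male. Cxcl13 differed by -1.29 and Cxcl12 by -1.05 (edgeR adjusted p = 0.186 and 0.293). Without number 427 the 4 differences were -1.003 for Ccl21a, -1.35 for Ccl19, -0.88 for Cxcl13 and -0.28 for Cxcl12 (edgeR adjusted p from 0.148 to 0.669).

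The call depended on the tool and on the filter. DESeq2 called Ccl19 (adjusted p = 0.0233) and Ccl21a (adjusted p = 0.00946), and 2.03% of all genes lower. So did edgeR without the filter on low counts (adjusted p = 0.0422 and 0.0150), where 0.642% of all genes were called lower. The fibroblast score in whole spleen averaged -0.36 ± 0.83 in females and 0.67 ± 1.04 in males (SD, n = 4), or 0.15 ± 0.18 in males without number 427 (SD, n = 3), and its part in the ligands' difference was not tested. None of the receptors was called there, with female minus male values of -0.02 for Cxcr5, 0.26 for Ccr7 and -0.07 for Cxcr4 (edgeR adjusted p from 0.322 to 0.931). By DESeq2, though not by edgeR, Ccr7 had an unadjusted p under 0.05. It averaged 3976 ± 469 CPM in females and 3312 ± 355 in males (SD, n = 4). In the size-selected samples the 7 differences ran from -0.48 to 0.10, with none at an unadjusted p under 0.05 by edgeR or DESeq2. These sex comparisons used deposited counts alone. The constant of Ccl21a and Cxcr4 ran from 0.659 to 0.728 in females and from 0.721 to 0.789 in males. Its part in the sex differences was not tested.

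The fraction difference of each ligand had a higher estimate in females than in males: 7.67 against 6.50 for Cxcl12, 7.86 against 5.89 for Ccl19, 6.91 against 5.31 for Ccl21a and 6.24 against 5.37 for Cxcl13. Each sex was fitted alone on deposited counts. The interaction of sex and fraction was called for none of the 7 genes and for 0% of all genes (edgeR). Ccl19 alone had an unadjusted p under 0.05 in that fit, with an interaction of 1.91 ± 0.76 (SE, edgeR adjusted p = 1.00). With the sample number as a block the interactions of all 4 ligands, from 0.93 to 2.08, had unadjusted p under 0.05 and none was called (edgeR adjusted p from 0.564 to 0.671). For the receptors the interactions were -0.24 to -0.03 without the block and, with it, 0.16 for Cxcr5, 0.050 for Ccr7 and -0.13 for Cxcr4 (edgeR adjusted p = 1.00 in each).

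Other genes that steer lymphocytes were taken from 6 lists, and each count is read against 37.5% of genes called higher and 30.4% called lower (edgeR; 37.6% and 30.4% on restored counts), with a median of 0.05 over all genes tested. Of 24 other homeostatic chemokines and receptors, 17 passed the filter. Of these 3 rose, Cx3cl1 (3.81 ± 0.30), its receptor Cx3cr1 (2.45 ± 0.22) and Cxcl16 (1.10 ± 0.14), and 9 fell. With the number as a block 5 were called higher, where 38.7% of all genes were, because that fit tested 16701 genes and let in Cxcl14 and Ccl21c, a near-identical copy of Ccl21a, at 0.541 and 0.245 CPM in the size-selected samples. The genes that fell are all known from lymphocytes or dendritic cells, such as Ccr6 (-1.33 ± 0.18), Cxcr3 (-1.42 ± 0.19), Cxcr6 (-1.14 ± 0.21), the dendritic cell receptor Xcr1 (-0.63 ± 0.21) and its ligand Xcl1 (-1.86 ± 0.26). The median was -0.63. Ccl17, Ccl20, Ccl28, Ccl21b, Ccl21c, Cxcl14 and Cxcl17 did not pass the filter, and Ccl22, Ccl24, Ccl25, Ccl27a and Gpr15 did not pass the test, with means of at most 9.80 CPM.

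All 8 atypical and scavenging receptors were called higher, with a median of 3.25. Of these, Ackr1, Ackr4, Cmklr1 and Pitpnm3 would fail the filter on whole spleen alone and had to be higher to be tested, so the count rests on the other 4. The ACKR family binds chemokines without the usual G protein signal and limits the amount available. Ackr3, which takes up CXCL12, averaged 169 ± 62.9 CPM in the size-selected samples and 16.7 ± 8.19 in whole spleen (SD, n = 8). It rose by 3.34 ± 0.29 (SE, edgeR adjusted p = 1.12e-08). Ackr4, which takes up CCL19, CCL21 and CCL25, averaged 5.90 ± 3.20 and 0.634 ± 0.636 CPM, given as levels only. Gpr182, an endothelial scavenger, rose by 3.28 ± 0.37. So Ackr3, the scavenger of CXCL12, was higher in the same fraction as its ligand, while the signalling receptor Cxcr4 was lower.

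Of 17 genes of sphingosine phosphate and oxysterol positioning, 9 rose and 7 fell (median 0.82). Hsd3b7 (2.72 ± 0.24), which degrades the oxysterol that GPR183 reads, and Sphk1 (3.47 ± 0.37), which makes sphingosine phosphate, rose, while the related Sphk2 fell (-0.38 ± 0.13). Ch25h and Cyp7b1, which make that oxysterol, averaged 29.8 and 12.8 CPM in the size-selected samples and 0.257 and 0.262 CPM in whole spleen. They would fail the filter on whole spleen alone and are 2 of the 9, so only their levels are given. Among receptors, Gpr183 itself (-0.97 ± 0.19), S1pr4 (-1.26 ± 0.21) and P2ry10 (-1.11 ± 0.22) fell, while S1pr2 (0.90 ± 0.19) and S1pr3 (1.86 ± 0.17) rose. S1pr1, the receptor by which lymphocytes leave lymphoid organs, was called lower on deposited counts (-0.60 ± 0.10) and carries the lowest constant. On restored counts it was -0.19 and not called (edgeR adjusted p = 0.106).

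Among 19 organisers of lymphoid stroma, 10 rose and 7 fell (median 1.27), and on restored counts 10 rose and 5 fell, with Relb and Cr1l no longer called. The ligands made largely by haematopoietic cells fell: Ltb (-1.46 ± 0.20), Lta (-0.92 ± 0.18), Tnfsf14 (-1.39 ± 0.32, or -1.14 on restored counts) and Tnf (-0.81 ± 0.13, or -0.41 on restored counts). Their stromal receptors Ltbr (2.56 ± 0.21) and Tnfrsf1a (1.27 ± 0.13, or 1.34 on restored counts) rose. So did the spleen transcription factor Nkx2-3 (4.62 ± 0.32). Of the 10 called higher, Il7, Nkx2-5, Pdpn, Tlx1 and Tnfsf13b would fail the filter on whole spleen alone and had to be higher to be tested. Their levels in the size-selected samples averaged 28.3 CPM for the transcription factor Tlx1 and 7.98 for the related Nkx2-5. The survival factors Il7 and Tnfsf13b averaged 18.5 and 18.7 CPM there, and in whole spleen these 4 genes averaged 0.139 to 0.477 CPM.

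Of 24 adhesion and presentation genes past the filter, 14 rose and 6 fell (median 0.58), and 17 rose on restored counts, 12 of the 27 listed genes carrying a constant. Genes that rose included Icam1 (2.31 ± 0.18) and Vcam1 (1.81 ± 0.21, or 1.89 on restored counts), while the related Icam2 was at 0.08 on deposited counts (edgeR adjusted p = 0.621) and rose by 0.79 on restored counts (edgeR adjusted p = 0.000106). Madcam1, Podxl and the heparan sulphate carrier Sdc2, on which chemokines are held, are 3 of the 14 and would fail the filter on whole spleen alone. Madcam1 averaged 56.4 against 2.26 CPM and Sdc2 78.2 against 1.64 CPM, with log2 fold changes of 5.05 and 5.66 on restored counts. The 6 that fell included the lymphocyte partners Selplg (-1.06 ± 0.14), Itgal (-0.54 ± 0.22), Itga4 (-0.96 ± 0.17) and Itgb7 (-1.20 ± 0.25, or -0.96 on restored counts), and Hs3st1 (-0.65 ± 0.17), a heparan sulphate enzyme. Of 29 genes that carry the signal of chemokine receptors in lymphocytes, 14 fell, 3 rose and 12 did not pass the test (median -0.28). On restored counts, and with the number as a block, 14 fell and 4 rose, Tln1 being the gene added. Coro1a (-1.15 ± 0.17) and Rac2 (-0.96 ± 0.14), both needed for lymphocyte migration, fell about as far as Ccr7 and Cxcr5, while Dock2 was at -0.10 ± 0.16 (edgeR adjusted p = 0.600). The rises were Rgs16 (3.13 ± 0.27, or 3.55 on restored counts), Arrb1 (1.52 ± 0.21) and Rgs18 (1.03 ± 0.30).

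**Figure D5:**
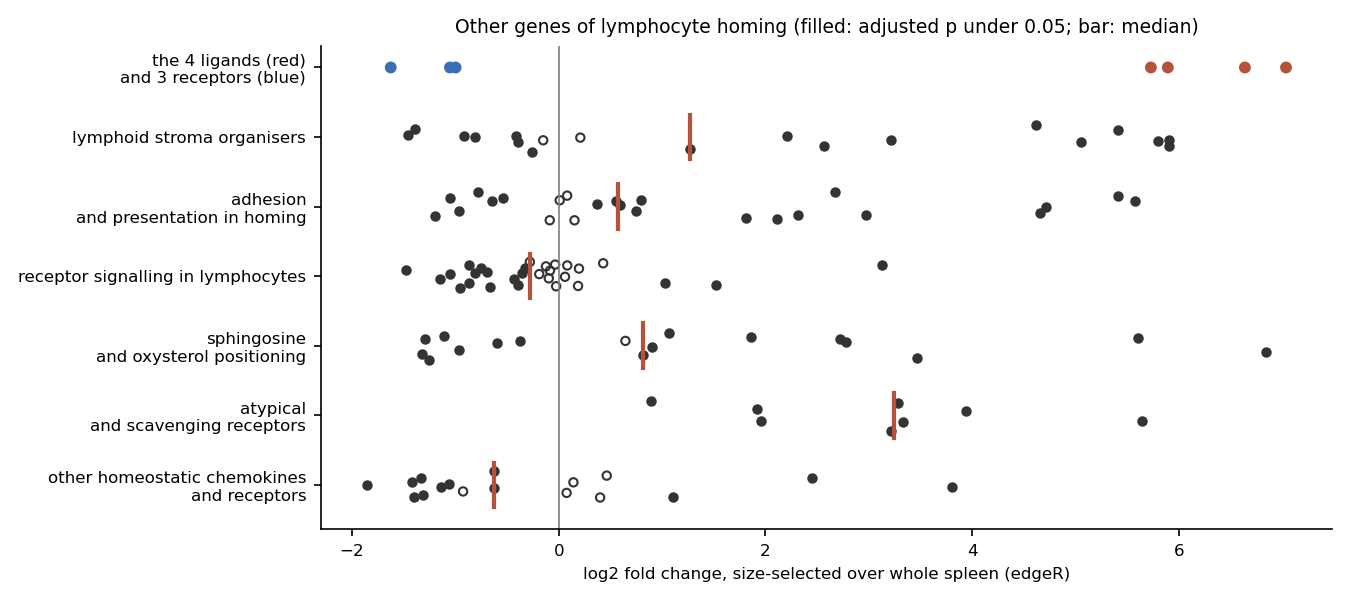
Log2 fold change (edgeR, size-selected over whole spleen) of the 4 ligands, the 3 receptors and the genes of 6 lists of lymphocyte homing, with filled points for adjusted p under 0.05 and bars at list medians. All 8 atypical receptors lie above 0 (median 3.25), 4 of which would fail the filter on whole spleen alone, and the other homeostatic chemokines and receptors have a median of -0.63, with Cx3cl1 and Cx3cr1 at the right.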

How the data were processed

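RNA sequencing of 8 size-selected and 8 whole spleen samples was used, grouped by the labels. The deposited values are estimated counts per gene. The submitters' processing notes name Trim Galore, STAR, RSEM, DESeq and the build mm10, without versions or roles. The annotation is not given in the sources used here. The log2 fold changes and the TPM means quoted from the authors' deposited table are per the file headers. Its p-values, base means (a mean signal per gene), test scores and FPKM values, as deposited by the authors, were not analysed here.

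Counts were rounded for edgeR 4.0.16 (R 4.3.3): filterByExpr with minimum count 10, TMM scaling, quasi-likelihood test, Benjamini-Hochberg adjustment over all genes tested, threshold 0.05, all 16 samples for the fraction and the interaction and 8 for a sex comparison within a fraction. CPM used TMM-scaled totals, and log2 CPM a prior count of 2. Marker scores were compared by exact two-sided permutation over 12870 splits, or over 256 sign patterns of pairs. The smallest p these can give are 0.000155 and 0.00781. Fits and the search for the constants were tested on simulated data. Coordinates are from GENCODE M21 (GRCm38), which held 54809 of the identifiers, 54256 with the same symbol.

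The numbers were taken to pair the samples: samples of the same number deviated together from their group means across genes in all 8 pairs (correlation 0.12 to 0.38, mean 0.21, against -0.03 for other pairs), though the labels do not tie them to 1 animal.

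The members and the gene lists were chosen with earlier results of these data known. The text names the members, the 3 genes most like each, and listed genes, with listed genes selected after their values were seen. Alternatives were other scalings, filters, DESeq2 1.42.0, the voom method of limma 3.58.1, blocking on the number, 1 sex alone, restored counts, each number left out and markers left out 1 at a time, except 1 B cell marker that is not reported here.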

Additional observations from a re-analysis of the deposited data

Results flagged for a closer look

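Of 30 groups of 8 samples screened for a sample far from the rest, 5 held one, where chance gives about 1 in 20 groups, or 1.5 here. Number 427 accounts for 4 of them. Its size-selected sample had log2 CPM of 6.10 for Cxcr5, against 7.70 to 8.29 in the other 7 samples, and 9.07 for Ccr7, against 10.36 to 11.22. The same sample had Cxcr4 at 2.16 above the T cell score, against 0.87 to 1.44. In whole spleen number 427 had log2 CPM of 4.23 for Cxcl12, against 1.68 to 2.67. The fifth was the whole spleen sample of number 460, where Ccl19 lay at -0.91 relative to the fibroblast score, against 0.85 to 1.90 in the others, on 6.34 estimated counts of Ccl19.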

How the results depend on the processing

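The fraction calls of the 7 genes (4 higher, 3 lower) held under all 22 alternative settings. Ccl19 would fail the filter on whole spleen alone, so its call is no support for a direction. With the number as a replicate block the log2 fold changes were 5.82 for Cxcl13, 6.74 for Ccl19, 6.08 for Ccl21a, 7.15 for Cxcl12, -1.09 for Cxcr5, -1.15 for Ccr7 and -1.71 for Cxcr4. Scaling by library totals moved the median of all genes from 0.05 to 0.18 and Cxcr5 to -0.86. Of 186 values relative to marker scores, 143 kept direction and side of the threshold. In whole spleen the sex comparison called 2 members with DESeq2 and 2 without a filter, where all genes called numbered 491 and 273 against 26. The interaction was called for no gene by edgeR and for 3 by DESeq2.

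Sign flips over pairs of the replicate block brought in Cxcr5 minus B cell (0.26) and Ccl21a minus fibroblast (-0.91), and changed no other call on deposited counts. On restored counts, a combination chosen after seeing the data, the same block kept Ccr7 minus T cell (0.41) and Cxcl13 minus fibroblast (-1.31). It lost Cxcr4 minus B cell (-0.026) and turned Cxcr4 minus T cell (0.32). It did not bring in Cxcr5 minus B cell (0.12) or Ccl21a minus fibroblast (-0.61). Against Dcn and Col1a2 alone, also chosen after seeing the data, Cxcl13 was at -0.81 and lost, Ccl19 turned to 0.25, and Ccl21a and Cxcl12 moved to -0.57 and 0.51, not past the threshold. A prior count of 0.5 gave 0.27 for Cxcr5 minus B cell and -1.34 for Ccl21a minus fibroblast, both now past the threshold, and turned Cxcl12 minus fibroblast to -0.27, with Ccl19 at -0.47 and Cxcl13 at -1.60 relative to the fibroblast score. Without pairing, restored counts gave 0.41 for Ccr7 minus T cell and -0.026 for Cxcr4 minus B cell, both lost, and turned Cxcr4 minus T cell to 0.32. Leaving a marker out brought in Cxcr5 minus B cell without Ms4a1 (0.35) or Cd22 (0.38), while it was 0.11 without Pax5 and 0.18 without Cd79a (exact permutation, adjusted p = 0.416 and 0.167), and Ccl21a minus fibroblast without Dcn (-1.07), Lum (-1.14) or Dpt (-0.96). It lost Ccr7 minus T cell without Cd3e (0.46), Cd3d (0.44), Cd3g (0.42) or Cd2 (0.50) and Cxcl13 minus fibroblast without Pdgfrb (-1.05). It turned Cxcr4 minus T cell without Cd6 (0.024), Ccl19 minus fibroblast without Pdgfrb (0.011) or Col3a1 (0.066) and Cxcl12 minus fibroblast without Lum (-0.057). Without the whole spleen sample of number 427 alone, chosen after seeing the data as were the summed copies, Ccr7 minus T cell was 0.46 and lost. Leaving out each number in turn gave 0.23 to 0.32 for Cxcr5 minus B cell, 0.43 to 0.52 for Ccr7 minus T cell, -0.37 to -0.31 for Cxcr4 minus B cell, -0.18 to -0.01 for Cxcr4 minus T cell, -1.26 to -1.02 for Cxcl13, -0.43 to 0.090 for Ccl19, -1.06 to -0.80 for Ccl21a and 0.09 to 0.30 for Cxcl12 minus fibroblast. Ccl19 minus fibroblast turned without number 408 or 435 (0.0043 and 0.090). The cause was not tested. The ligand and receptor correlations kept their sign and side of the threshold on restored counts. They were computed after values had been seen.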

Other observations

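The near-identical copies and pseudogenes of Ccl21a and Ccl19 are given here as counts, with no test. Gm21541 held 856 estimated counts over the 8 size-selected samples, from 0 to 272 per sample and above 0 in 6, and 1.69 in whole spleen. Gm13304 held 163 and 8.70, and was above 0 in 4 size-selected samples. Ccl19-ps1, annotated as a pseudogene, held 1239 and 9.06, and was above 0 in 8 size-selected samples, from 75.3 to 295. The coding sequences of Gm21541, Gm13304, Ccl21b and Gm10591 carry the same 2 differences from Ccl21a. A read within them over either position therefore cannot tell these 4 apart.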
